A study of Mus musculus with 32 samples.

Results

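Klf4, Klf5, Klf17, Pou5f1 (Oct4), Sox2, Nanog, Zfp42 (Rex1), Sall4, Esrrb and Myc encode transcription factors known from the control of pluripotency and of reprogramming. They were chosen by name, and all 10 are listed among the 46078 genes of both a total RNA and a polyA RNA table of mouse embryos. Tests covered the genes that reached 1 FPKM, a fragment count scaled to transcript length and library size, in 2 or more libraries. That filter kept 9 of the 10 in total RNA, where 15068 genes were tested, and 10 of the 10 in polyA RNA, where 18506 were tested. Nanog was the member that did not pass in total RNA.

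Embryos were taken late in the 1-cell stage, 12 hours after fertilization, and late in the 2-cell stage, 28 hours after it, with or without mutation of Dppa2 or Dppa4, a pair of early-embryo nuclear factors with a SAP domain. The total RNA data hold 8 groups of 2 libraries: control embryos (m+z+) and embryos of mutant mothers that carry an intact zygotic allele (m-z+), at both stages, in a Dppa2 arm of mixed B6/DBA background and a Dppa4 arm of B6 background. The polyA data hold 6 groups, all described as single embryos: B6 wild type (WT) at the 1-cell and at the 2-cell stage (2 libraries each), and at the 2-cell stage Dppa2 m-z+, Dppa2 m-z-, Dppa4 m-z+ and Dppa4 m-z- (3 libraries each), in the backgrounds of their arms. By their label the m-z- embryos lack the gene from both the mother and the zygote. The descriptions name the polyA m-z+ embryos heterozygous and the WT embryos controls of the Dppa4 arm. The sources used here do not say how the alleles were made or how many embryos went into a total RNA library. The labels do not place replicates in separate mothers or collections, so the p-values measure only how these libraries vary. That variation may be technical in total RNA, and in the single-embryo polyA libraries it may include differences between embryos. A library of more than 1 cell mixes the RNA of its cells, so there fewer cells holding a transcript and less of it per cell cannot be told apart.

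FPKM summed to 412115 to 629583 in total RNA libraries and 539978 to 675241 in polyA libraries. Read depth is unknown from FPKM, so no counting interval is given. At the 2-cell stage the summed level of 7 oocyte and zygote markers was 340 to 825 FPKM in total RNA, against 1867 to 2472 FPKM at the 1-cell stage, and that of 7 markers of the 2-cell embryo was 218 to 310 FPKM against 4.03 to 15.1 FPKM. The labelled stages therefore showed their markers. Dppa4 m-z- embryos had Dppa4 listed at 0 to 0.149 FPKM, and Dppa4 m-z+ embryos at 125 to 155 FPKM. Dppa2 stood at 76.5 to 155 FPKM in the libraries labelled Dppa2 m-z- and at 63.3 to 92.4 FPKM in Dppa2 m-z+, so their label was not visible in Dppa2 RNA, and every direction given for them rests on that label. Among them, replicate 3 stood apart: Hba-a1 was at 532, Hba-a2 at 505 and Hbb-bs at 378 FPKM, against at most 48.3, 60.3 and 0 FPKM in the other 15 polyA libraries. The differences between Dppa2 m-z- and m-z+, and those of Myc against WT and between the arms, are therefore also given without replicate 3.

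In embryonic stem cells, POU5F1, SOX2 and NANOG bind many of the same regulatory regions and sustain one another's transcription, and KLF4, KLF5 and ESRRB bind beside them and help to hold the naive state. POU5F1, SOX2, KLF4 and MYC are the classic factors for turning fibroblasts into induced pluripotent stem cells. In a cleaving embryo the RNA of such a gene can be left from the oocyte, newly made by the embryo's own genome, or both, and polyA libraries, unlike total RNA libraries, capture a stored transcript according to its polyA tail.

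The promoters of a few members are shown because these genes moved in opposite directions or stood near 0 in the same embryos. RefSeq windows on GRCm38.p6 were found for 7 of the 10 members, and the table gave none for Klf5, Sall4 and Myc. Each line gives the 250 bases before the RefSeq start, in the direction of transcription, for Klf4 (chr4:55532476-55532725, reverse strand) and Zfp42 (chr8:43307010-43307259, reverse strand), whose RNA rose, for Sox2 (chr3:34649745-34649994, forward strand), whose RNA rose in total RNA, for Klf17 (chr4:117765667-117765916, reverse strand), whose RNA fell, and for Nanog (the first of its RefSeq windows, chr6:122707239-122707488, forward strand), which was near 0. Capitals mark matches, on either strand, to the POU octamer (ATGCAAA), the E-box (CACGTG), a Klf box (CACNCCC), an Esrr site (AAGGTCA) or a Sox core (ACAAAG).
Klf4: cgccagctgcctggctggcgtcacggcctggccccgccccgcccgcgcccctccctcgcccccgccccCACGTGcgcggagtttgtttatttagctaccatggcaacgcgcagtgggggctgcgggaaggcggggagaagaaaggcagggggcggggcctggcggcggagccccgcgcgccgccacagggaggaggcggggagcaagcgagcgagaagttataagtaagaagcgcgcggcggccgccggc
Zfp42: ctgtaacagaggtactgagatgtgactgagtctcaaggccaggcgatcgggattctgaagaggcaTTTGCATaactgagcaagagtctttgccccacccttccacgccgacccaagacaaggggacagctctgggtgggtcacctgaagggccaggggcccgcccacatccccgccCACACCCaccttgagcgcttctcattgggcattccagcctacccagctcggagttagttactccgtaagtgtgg
Sox2: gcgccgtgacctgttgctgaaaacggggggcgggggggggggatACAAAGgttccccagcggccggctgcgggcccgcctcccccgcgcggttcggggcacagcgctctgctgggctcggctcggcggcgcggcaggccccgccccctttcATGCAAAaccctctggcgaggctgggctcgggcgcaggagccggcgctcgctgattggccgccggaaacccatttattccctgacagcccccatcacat
Klf17: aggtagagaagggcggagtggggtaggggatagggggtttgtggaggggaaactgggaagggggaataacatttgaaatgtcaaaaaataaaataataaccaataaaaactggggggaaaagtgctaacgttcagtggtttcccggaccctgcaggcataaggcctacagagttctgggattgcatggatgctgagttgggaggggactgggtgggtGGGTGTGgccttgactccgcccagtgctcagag
Nanog: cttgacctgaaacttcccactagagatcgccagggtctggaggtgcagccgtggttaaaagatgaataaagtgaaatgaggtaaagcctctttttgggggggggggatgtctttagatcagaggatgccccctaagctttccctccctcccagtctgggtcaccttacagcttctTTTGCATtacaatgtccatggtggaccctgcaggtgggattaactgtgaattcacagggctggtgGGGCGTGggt
The Klf4 window held an E-box 182 bases before the start and no Klf box. The Zfp42 and Nanog windows each held an octamer (185 and 75 bases before the start) and a Klf box (74 and 10 bases before it). The Sox2 window held an octamer 99 and a Sox core 206 bases before the start, and the Klf17 window a Klf box 33 bases before it. For the Sox2 window and the Nanog window shown, a stretch checked just after the RefSeq start was in no GENCODE transcript of that gene. In GENCODE the Sox2 gene starts at 34650405, beyond the window end at 34649994, so the Sox2 distances refer to the RefSeq start only. None of the matches shown overlaps another. Among 32536 windows of the same length, 4.15% held the octamer, 6.04% the E-box, 26.1% the Klf box, 4.09% the Esrr site and 16.5% the Sox core. A match is a description of the letters and was not tested against the RNA levels.

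Between the 1-cell and the 2-cell stage, Klf4, Klf5, Sox2, Zfp42 and Myc rose and Klf17 fell in all 4 total RNA genotypes, and Pou5f1 fell in both genotypes of the Dppa2 arm. Sall4 and Esrrb did not pass the test in any total RNA stage comparison in the fit of all 16 libraries with the values as deposited. In Dppa2-arm m+z+ embryos 5 members rose and 2 fell, where 61.6% of all genes tested passed (31.7% higher, 29.9% lower). In Dppa4-arm m+z+ embryos 5 rose and 1 fell, against 49.1% of all genes (24.9% and 24.2%). The Dppa2 m-z+ embryos gave 5 and 2, against 57.3% (28.8% and 28.4%), and the Dppa4 m-z+ embryos 5 and 1, against 50.3% (25.3% and 25%). With so many genes moving, a share of members past the threshold says little about the members as a set. Changes are given on the scale of log2(FPKM + 1), with the standard error (SE) of limma and a p-value adjusted by the Benjamini-Hochberg method over all genes tested. The median change of all genes tested was 0.06 and 0.04 in the Dppa2-arm and Dppa4-arm controls. When each library was instead scaled to a common total (TPM), that median was -0.20 and -0.16. The members' calls then split into 4 higher and 4 lower in the Dppa2-arm controls, because Sox2 no longer passed and Sall4 and Esrrb passed as lower, and into 5 and 2 in the Dppa4-arm controls, because Pou5f1 passed as lower. With median-ratio scaling, which put the medians at 0.25 and 0.20, the Dppa4-arm controls and Dppa4 m-z+ embryos each gave 5 higher and 0 lower.

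**Figure D1:**
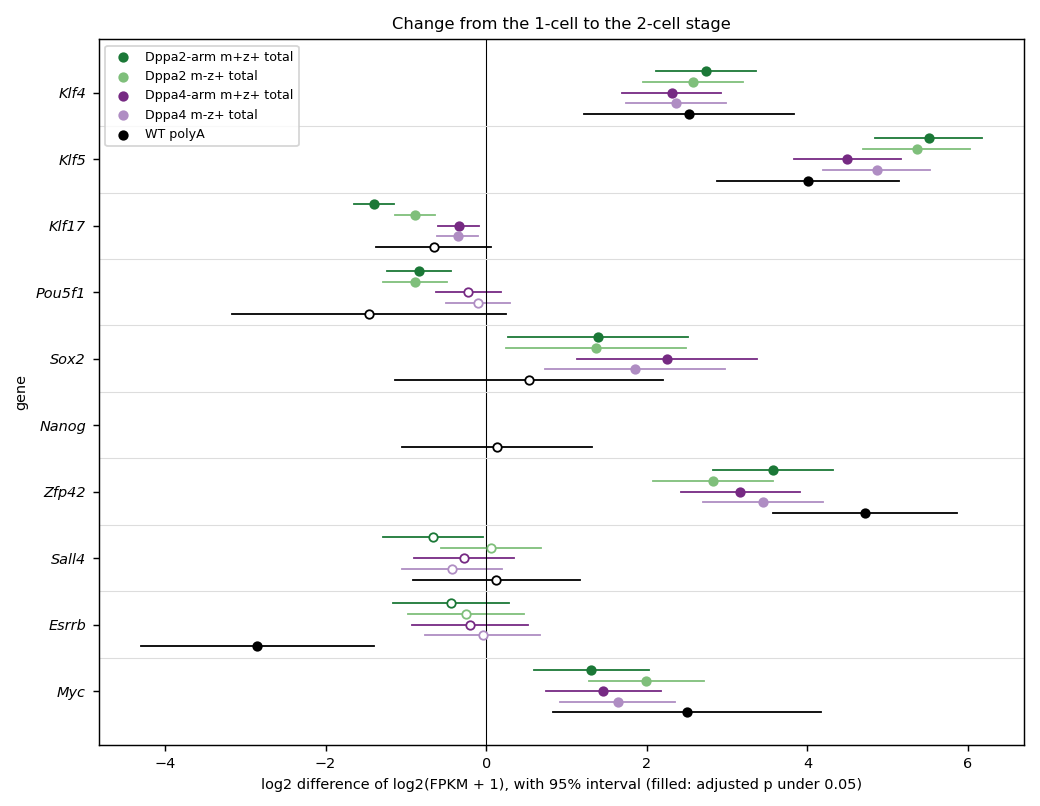
2-cell minus 1-cell difference of each gene on the log2(FPKM + 1) scale in 4 total RNA genotypes (green and purple) and in WT polyA RNA (black). Points are limma estimates with 95% intervals and are filled where the adjusted p was below 0.05. Klf4, Klf5, Zfp42 and Myc lie to the right of 0 in all 5 comparisons, and Esrrb lies between -0.43 and -0.04 in total RNA and at -2.85 in polyA RNA.

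The Klf genes encode zinc-finger factors that bind GC-rich and CACCC sequences. Klf4, one of the reprogramming factors, lies on the reverse strand of chromosome 4 (ENSMUSG00000003032, mm10, 55527143 to 55532466). It was at 10.1 and 9.02 FPKM in the 1-cell and 92.5 and 52.3 FPKM in the 2-cell libraries of Dppa2-arm controls. The Dppa4-arm controls held 10.1 and 9.2 FPKM in 1-cell libraries and then 55.1 and 48.7 FPKM in 2-cell libraries. The stages did not overlap in either arm, and the first 2-cell library of the Dppa2 arm was well above the second. The rise was 2.74 (SE 0.29, limma adjusted p = 4.53e-06) for Dppa2-arm controls and 2.31 (SE 0.29, adjusted p = 3.08e-05) for Dppa4-arm controls. The m-z+ embryos went from 11.4 and 8.25 to 82.8 and 48 FPKM in the Dppa2 arm and from 10.4 and 13.4 to 68.6 and 61.8 FPKM in the Dppa4 arm. Klf4 was thus already present at the 1-cell stage and higher in every 2-cell library, with rises of 2.58 and 2.37 in the m-z+ groups.

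Klf5, a factor needed for the first lineages of the blastocyst, lies on chromosome 14 (ENSMUSG00000005148, 99298691 to 99315036, forward strand). The 1-cell controls of the Dppa2 arm held 0.053 and 0 FPKM, and those of the Dppa4 arm 1.79 and 0.549 FPKM. The 2-cell controls held 50 and 42 FPKM, and 46.2 and 45.7 FPKM. Klf5 was near absent at the 1-cell stage and at a similar level in both arms at the 2-cell stage, so its log2 rise was the largest among the members in both control groups. That rise was 5.51 (SE 0.31, limma adjusted p = 3.77e-08) in Dppa2-arm controls and 4.50 (SE 0.31, adjusted p = 2.52e-07) in Dppa4-arm controls. The m-z+ embryos rose from 0.736 and 0.228 to 72.4 and 48.2 FPKM in the Dppa2 arm and from 0.837 and 0.403 to 40.1 and 52.2 FPKM in the Dppa4 arm. At such low 1-cell levels the pseudocount limits the size of the fold change.

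Klf17, a Klf factor of oocytes and cleavage embryos, was the member with the highest FPKM at both stages in total RNA and lies on chromosome 4 with Klf4 (ENSMUSG00000048626, 117757836 to 117765648, reverse strand). It went from 364 and 351 to 130 and 140 FPKM in Dppa2-arm controls, and from 276 and 276 to 213 and 222 FPKM in Dppa4-arm controls. The stages did not overlap in either arm, but they lay much closer in the Dppa4 arm. The change was -1.40 (SE 0.12, limma adjusted p = 7.25e-07) for Dppa2-arm controls and -0.34 (SE 0.12, adjusted p = 0.0267) for Dppa4-arm controls. The difference between these falls was itself tested and was -1.06 (SE 0.17, limma adjusted p = 0.0384), in a contrast that called 21 of 15068 genes. Leaving out 1 library at a time moved that adjusted p between 0.0127 and 0.174, and it missed the threshold without any of the 4 control 1-cell libraries (0.145 to 0.174) or without Dppa4-arm control 2-cell replicate 2 (0.126). Dppa2 m-z+ embryos went from 339 and 358 to 182 and 195 FPKM (-0.88, SE 0.12, adjusted p = 3.26e-05), and Dppa4 m-z+ embryos from 294 and 281 to 245 and 205 FPKM (-0.36, SE 0.12, adjusted p = 0.0221). With TPM scaling the fall in the Dppa4 arm was larger and passed, at -0.70 in controls (limma adjusted p = 0.00072) and -0.72 in m-z+ embryos (0.000583). The fall in the Dppa4 arm was no longer called with median-ratio scaling, which gave -0.14 in controls and -0.15 in m-z+ embryos. Nor was it with limma without trend and robust options (adjusted p = 0.103 and 0.0907), with the compared groups only (0.0831 and 0.0633) or without a filter (0.609 and 0.571). It was also not called without any 1 of 3 control libraries (adjusted p = 0.0881 without 2-cell replicate 1, 0.101 and 0.0997 without 1-cell replicates 1 and 2). In Dppa4 m-z+ it was lost without 1-cell replicate 1 (0.113), 1-cell replicate 2 (0.0663) or 2-cell replicate 2 (-0.23, adjusted p = 0.178).

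**Figure D2:**
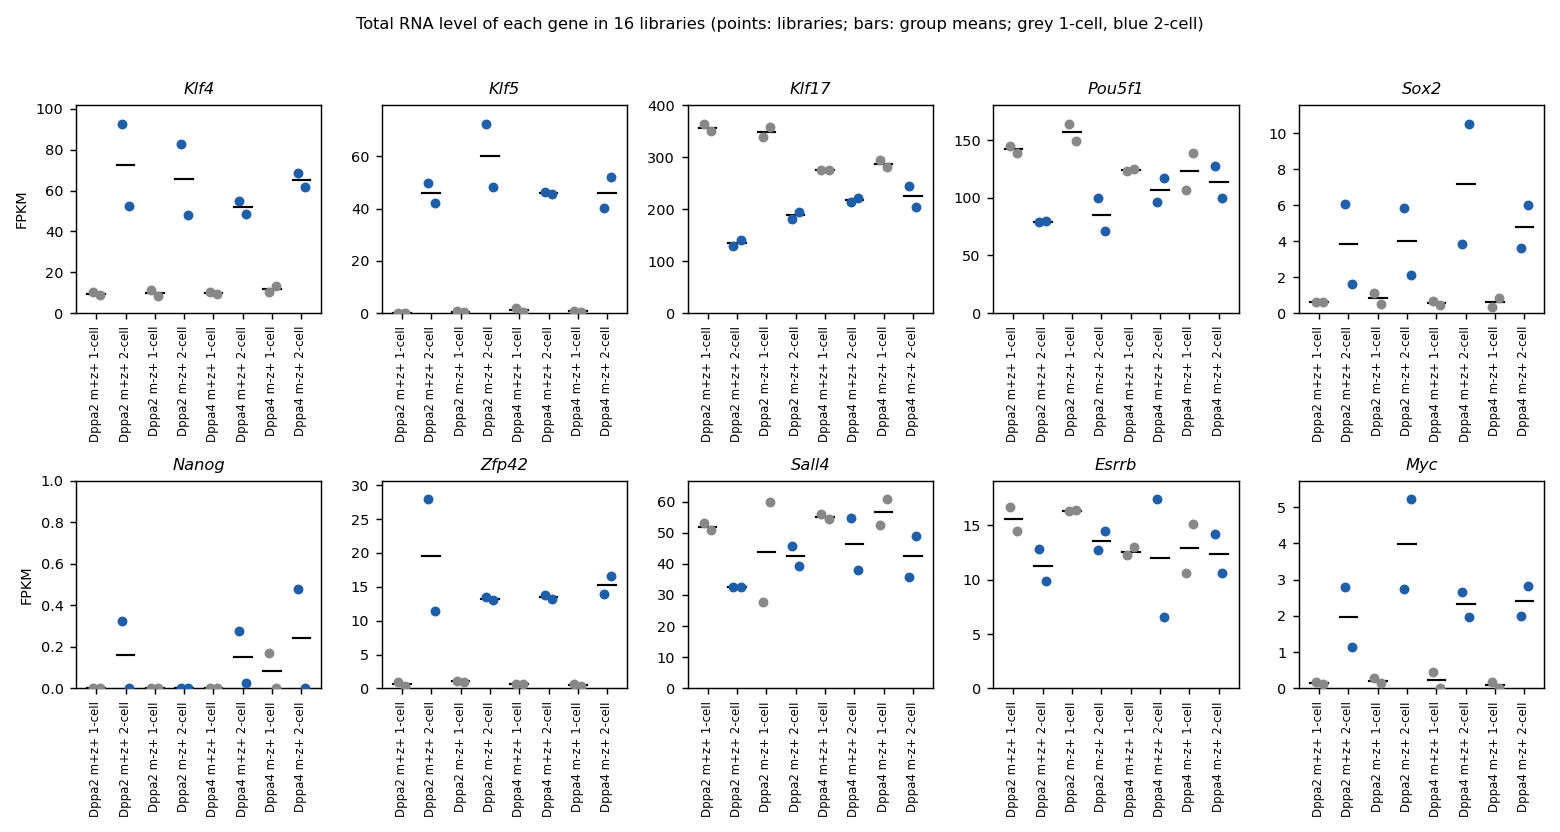
FPKM of the 10 genes in the 16 total RNA libraries (points, grey for 1-cell and blue for 2-cell) with the group means (bars), each panel on its own linear axis from 0. Klf17 falls from 351 and 364 to 130 and 140 FPKM in Dppa2-arm controls and stays above 200 FPKM in the Dppa4 arm, Klf5 and Zfp42 start near 0, and Nanog does not exceed 0.479 FPKM.

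Of the core trio, Pou5f1 was abundant at both stages, Sox2 was low, and Nanog was at or near 0. Pou5f1, the POU-homeodomain factor Oct4, lies on chromosome 17 (ENSMUSG00000024406, 35506018 to 35510772, forward strand). It was at 145 and 139 FPKM in 1-cell and 78.7 and 79.7 FPKM in 2-cell controls of the Dppa2 arm, a fall of -0.84 (SE 0.19, limma adjusted p = 0.00177). The Dppa2 m-z+ embryos went from 164 and 149 to 99.7 and 70.9 FPKM (-0.89, SE 0.19, adjusted p = 0.00122). Without a filter, 1 member in place of 2 (Klf17 and Pou5f1) was called lower in each Dppa2-arm genotype. In the Dppa4 arm, controls stood at 123 and 125 and then 96.6 and 117 FPKM, and m-z+ embryos at 107 and 139 and then 128 and 100 FPKM. The stages did not overlap in the Dppa2 arm nor in the Dppa4-arm controls, and they did in Dppa4 m-z+. Neither Dppa4-arm change passed (-0.22 and -0.10, limma adjusted p = 0.341 and 0.667; with TPM scaling the control change was -0.58 and passed, adjusted p = 0.0487), and the difference between the control falls of both arms, -0.61, did not pass either (SE 0.26, adjusted p = 0.289). The antisense gene Gm19553 overlaps Pou5f1 exons and was listed at 0 to 0.197 FPKM in total RNA.

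Sox2, the HMG-box partner of POU5F1, lies on chromosome 3 (ENSMUSG00000074637, 34650405 to 34652461, forward strand). It rose from 0.643 and 0.625 to 6.07 and 1.61 FPKM in Dppa2-arm controls and from 0.679 and 0.473 to 3.85 and 10.5 FPKM in Dppa4-arm controls. Every 2-cell library was above every 1-cell library of its arm, but the 2-cell replicates differed widely. The rises were 1.39 (SE 0.52, limma adjusted p = 0.0326) and 2.25 (SE 0.52, adjusted p = 0.00316). The m-z+ embryos went from 1.14 and 0.494 to 5.86 and 2.1 FPKM in the Dppa2 arm (1.37, adjusted p = 0.038) and from 0.342 and 0.839 to 3.59 and 6.01 FPKM in the Dppa4 arm (1.85, adjusted p = 0.00981). Without the first 2-cell library the rise was 0.67 in Dppa2-arm controls and 0.79 in Dppa2 m-z+, and did not pass (adjusted p = 0.314 and 0.28). Leaving out either 1-cell library also ended the call in Dppa2-arm controls (adjusted p = 0.0976 and 0.101) and in Dppa2 m-z+ embryos (0.0579 and 0.183), and leaving out 1-cell replicate 1 or 2-cell replicate 2 ended it in Dppa4 m-z+ (0.0681 and 0.0785). With all libraries of the compared groups kept, the Dppa2-arm rises also missed the threshold with TPM scaling (limma adjusted p = 0.0785 in controls and 0.0652 in m-z+). They missed it too with only the groups compared (0.0633 and 0.0554). Sox2 lies within the long noncoding gene Sox2ot, on the same strand, whose exons it does not share. Sox2ot was listed at 0 to 1.02 FPKM, in the range of Sox2 at the 1-cell stage.

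Nanog, the homeodomain factor of the naive epiblast, lies on chromosome 6 (ENSMUSG00000012396, 122707489 to 122714633, forward strand). In total RNA it was listed at 0 in 7 of the 8 1-cell libraries and at 0.17 FPKM in the other, a Dppa4 m-z+ library. The 2-cell libraries held 0.323 and 0 FPKM in Dppa2-arm controls, 0 and 0 in Dppa2 m-z+, 0.275 and 0.0253 FPKM in Dppa4-arm controls, and 0.479 and 0 FPKM in Dppa4 m-z+. No group stood clear of another, and the gene was not tested in total RNA. Without read depth, a listing at 0 does not bound the level.

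Among the partner factors Zfp42 rose steeply, whereas Sall4 and Esrrb did not pass in the fit of all total RNA libraries with the values as deposited. Zfp42, a zinc-finger gene used as a marker of naive stem cells, lies on chromosome 8 (ENSMUSG00000051176, 43295063 to 43306980, reverse strand). It rose from 0.975 and 0.287 to 27.9 and 11.4 FPKM in Dppa2-arm controls and from 0.627 and 0.605 to 13.8 and 13.2 FPKM in Dppa4-arm controls. The m-z+ embryos went from 1.16 and 0.877 to 13.5 and 13 FPKM and from 0.689 and 0.304 to 14 and 16.6 FPKM. The 2-cell values were close to one another apart from the first Dppa2-arm control. The rises were 3.57 (SE 0.34, limma adjusted p = 2.3e-06), 3.16 (adjusted p = 1.05e-05), 2.82 (adjusted p = 1.71e-05) and 3.45 (adjusted p = 4.89e-06), in that order.

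Sall4, a zinc-finger factor of stem cells and oocytes, lies on chromosome 2 (ENSMUSG00000027547, 168748332 to 168767943, reverse strand). It was at 53 and 50.9 FPKM in 1-cell and 32.5 and 32.6 FPKM in 2-cell Dppa2-arm controls (-0.66, SE 0.29, limma adjusted p = 0.0625), and at 56 and 54.4 and then 54.6 and 38 FPKM in Dppa4-arm controls (-0.27, adjusted p = 0.454). Dppa2 m-z+ embryos held 27.6 and 59.8 and then 45.8 and 39.2 FPKM, and Dppa4 m-z+ embryos 52.6 and 60.7 and then 35.7 and 49.1 FPKM. The 2-cell libraries lay below the 1-cell libraries in Dppa4 m-z+ (-0.42, adjusted p = 0.238) and in Dppa2-arm controls, and overlapped them in Dppa2 m-z+ (0.06, adjusted p = 0.882) and narrowly in Dppa4-arm controls. Under other settings the fall in Dppa2-arm controls did pass, with only the groups compared (-0.66, limma adjusted p = 0.0108) and with TPM scaling (-1.125, 0.00753). The opposite-strand gene Gm14261, which overlaps Sall4, was listed at 0 to 0.114 FPKM.

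Esrrb, an orphan nuclear receptor of the naive network, lies on chromosome 12 (ENSMUSG00000021255, 86361117 to 86521628, forward strand). It was at 16.7 and 14.5 and then 12.8 and 9.85 FPKM in Dppa2-arm controls and at 12.3 and 13 and then 17.4 and 6.58 FPKM in Dppa4-arm controls. The m-z+ embryos held 16.3 and 16.4 and then 12.7 and 14.5 FPKM in the Dppa2 arm, and 10.6 and 15.1 and then 14.2 and 10.6 FPKM in the Dppa4 arm. Both 2-cell libraries were below both 1-cell libraries in each Dppa2-arm genotype, and the stages overlapped in the Dppa4 arm. The changes lay between -0.43 (95% interval -1.16 to 0.29) in Dppa2-arm controls and -0.04 (-0.76 to 0.68) in Dppa4 m-z+, and none passed (adjusted p = 0.269 and 0.925 for these). With TPM scaling the change in Dppa2-arm controls was -0.90 and passed (limma adjusted p = 0.0312).

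Myc, the basic helix-loop-helix factor of growth and reprogramming, lies on chromosome 15 (ENSMUSG00000022346, 61985391 to 61990374, forward strand). It rose from 0.171 and 0.118 to 2.79 and 1.13 FPKM in Dppa2-arm controls (1.31, SE 0.33, limma adjusted p = 0.00416) and from 0.448 and 0 to 2.67 and 1.98 FPKM in Dppa4-arm controls (1.46, SE 0.33, adjusted p = 0.00285). The m-z+ embryos rose from 0.28 and 0.148 to 2.75 and 5.21 FPKM (1.99, adjusted p = 0.000219) and from 0.178 and 0 to 2 and 2.81 FPKM (1.64, adjusted p = 0.00123). All 2-cell libraries were above all 1-cell libraries, at levels that remained low. The 1-cell libraries held at most 0.448 FPKM, so Myc met the filter of 1 FPKM through 2-cell libraries alone. Without a filter, 3 members in place of 5 were called higher in each total RNA stage comparison.

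In polyA RNA of WT embryos the same stage comparison raised Klf4, Klf5, Zfp42 and Myc and lowered Esrrb, so 4 members rose and 1 fell, where 25.9% of all genes passed (17.4% higher, 8.42% lower). The tables were normalized separately, so levels are not compared across them. Klf4 rose from 0.786 and 2.7 to 16.7 and 11.4 FPKM (2.53, SE 0.62, limma adjusted p = 0.00569) and Klf5 from 0.0753 and 0 to 13.2 and 18.7 FPKM (4.01, SE 0.54, adjusted p = 2.5e-05). Zfp42 rose from 0.198 and 0 to 36.1 and 21.4 FPKM (4.72, SE 0.54, adjusted p = 5e-06). On this scale Zfp42 thus had the largest log2 rise among the members in polyA RNA, where Klf5 had it in the total RNA controls. Both genes started near 0, so the pseudocount limits these rises and can set their order. The rises of Zfp42 and Klf5 were not tested against each other. Myc rose from 0.441 and 0 to 6.69 and 5.03 FPKM (2.50, SE 0.79, adjusted p = 0.0268). Leaving out any 1 of the 4 WT libraries ended the Myc call (adjusted p = 0.0751 to 0.157). The Klf4 call was lost without WT 1-cell replicate 1 (adjusted p = 0.0885) or WT 2-cell replicate 1 (0.0557).

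Esrrb fell from 35.5 and 42.8 FPKM in WT 1-cell embryos to 7.83 and 2.46 FPKM in WT 2-cell embryos (-2.85, SE 0.69, limma adjusted p = 0.00507). Without a filter, 0 members were called lower in this comparison, so the Esrrb call was lost. The other 12 2-cell polyA libraries held 0.975 to 9.86 FPKM of Esrrb, all below both 1-cell libraries. In the B6 controls of total RNA the Esrrb change was -0.20 (95% interval -0.92 to 0.52), and the difference between the RNA types was not tested. That total RNA value rested on 2 unlike 2-cell libraries: it was -0.84 and passed (adjusted p = 0.0255) without replicate 1, and 0.44 (adjusted p = 0.19) without replicate 2. Without WT 2-cell replicate 2 the polyA fall was -2.18 and no longer passed (adjusted p = 0.0768). Pou5f1 went from 22.8 and 18.3 to 5.54 and 8.27 FPKM (-1.46, SE 0.81, adjusted p = 0.208) and Klf17 from 134 and 113 to 72.9 and 82.6 FPKM (-0.66, SE 0.34, adjusted p = 0.173). Their stages did not overlap, but neither change passed, although both did in a fit of the compared groups only (adjusted p = 0.0189 for Pou5f1 and 0.0447 for Klf17). Sall4 was at 12.1 and 15.7 and then 24 and 9.38 FPKM (0.13, adjusted p = 0.913) and Sox2 at 0 and 0.757 and then 1.2 and 0.666 FPKM (0.53, adjusted p = 0.685), with overlapping stages. The polyA libraries do not mark strand, and the opposite-strand genes overlapping Pou5f1 (Gm19553, 0 to 0.535 FPKM) and Sall4 (Gm14261, 0 to 0.491 FPKM) were low. Sox2ot, on the same strand as Sox2, was listed at 0 to 1.93 FPKM, in the range of Sox2 itself. Nanog was listed at 0 in both WT 1-cell libraries and at 0 and 0.202 FPKM in the 2-cell libraries (0.13, adjusted p = 0.922). It reached 1 FPKM only in libraries of the mutant groups, so this WT comparison says little about Nanog.

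**Figure D3:**
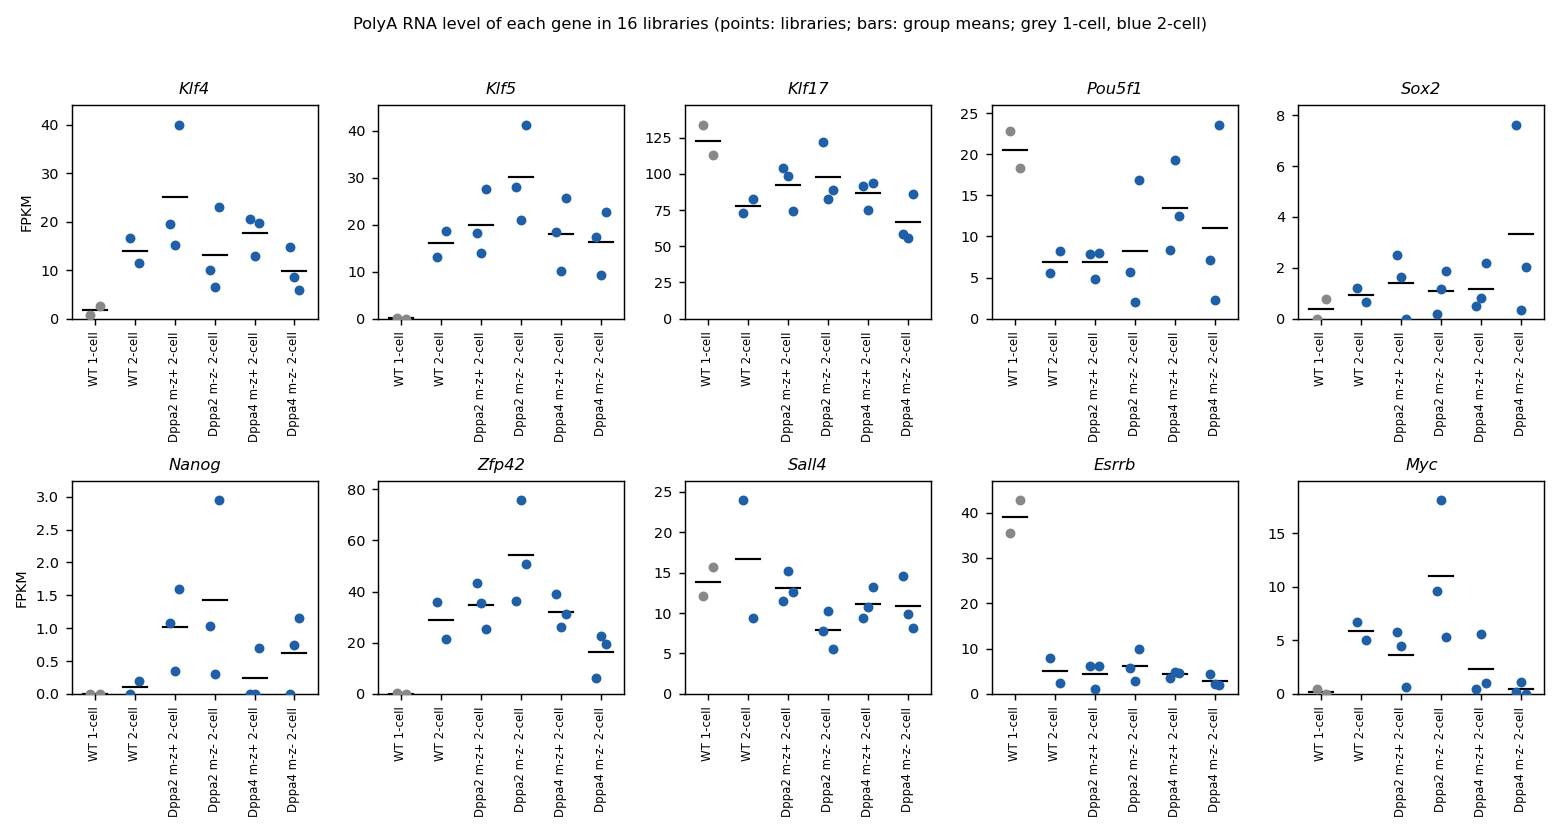
FPKM of the 10 genes in the 16 polyA libraries (points, grey for 1-cell and blue for 2-cell) with the group means (bars), each panel on its own linear axis from 0. Esrrb stands at 35.5 and 42.8 FPKM in WT 1-cell embryos and at 9.86 FPKM or less in all 2-cell libraries, and Myc is at 1.08 FPKM or less in the 3 Dppa4 m-z- libraries.

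Mutation of the mother's Dppa2 or Dppa4 was next compared with its controls. In 1-cell total RNA Dppa2 was at 9.38 to 9.52 FPKM in Dppa2 m-z+ against 32.3 to 32.7 FPKM in controls. Dppa4 was there at 0 to 1.13 FPKM in Dppa4 m-z+ against 4.37 to 6.92 FPKM. At the 2-cell stage both overlapped their controls, Dppa2 at 44.8 to 59.2 against 49.7 to 53 FPKM and Dppa4 at 20.3 to 25.5 against 17.6 to 30.1 FPKM. No member passed in either arm at either stage: 0 of 9, where 0.0398% (1-cell) and 0.186% (2-cell) of all genes passed for Dppa2 m-z+ and 0.00664% and 0% for Dppa4 m-z+. At an unadjusted p below 0.05 there were 2 of 9 members in Dppa2 m-z+ at the 2-cell stage, Klf17 and Myc, where 12.8% of all genes were below it, and 0 in the other 3 comparisons, where 1.27% to 3.05% were. Klf17 came nearest, at 182 and 195 FPKM in Dppa2 m-z+ against 130 and 140 FPKM in controls at the 2-cell stage. The groups did not overlap, and the difference was 0.48 (SE 0.12, 95% interval 0.23 to 0.73, limma adjusted p = 0.107; unadjusted 0.00124). Myc was at 2.75 and 5.21 against 2.79 and 1.13 FPKM in the same comparison (0.77, SE 0.33, adjusted p = 0.356), with overlapping groups. In Dppa4 m-z+ 2-cell embryos the differences of the 9 members lay between -0.40 for Sox2 (95% interval -1.52 to 0.73) and 0.32 for Klf4 (-0.30 to 0.94), and the Klf17 interval was the narrowest (0.05, -0.21 to 0.30). At the 1-cell stage they lay between -0.34 for Sall4 and 0.51 for Klf5 in Dppa2 m-z+, and between -0.37 for Klf5 and 0.27 for Klf4 in Dppa4 m-z+. The stage change itself did not differ between m-z+ and m+z+ for any member at the threshold (0 of 9, where 0% of genes passed for Dppa2 and 0.00664% for Dppa4). The closest was again Klf17 in the Dppa2 arm (0.52, SE 0.16, adjusted p = 0.418). The difference of these genotype effects between the arms passed for no member (adjusted p of at least 0.595 for the 9 members at the 2-cell stage).

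Loss of the zygotic supply as well, as labelled, was examined in polyA RNA of 2-cell embryos. No member passed between m-z- and m-z+ (0 of 10 in each arm, where 0.0054% of all genes passed for Dppa2 and 0.0162% for Dppa4), and 1 in each arm had an unadjusted p below 0.05, Myc for Dppa2 and Zfp42 for Dppa4, where 7.65% and 7% of all genes did, a share near that of the members. In Dppa4 m-z- embryos Zfp42 was at 6.25, 22.8 and 19.6 FPKM, against 39.1, 26.3 and 31.3 FPKM in m-z+. All 3 m-z- libraries were below all 3 m-z+ libraries, a difference of -1.11 (SE 0.44, limma adjusted p = 0.694), which was -0.57 without m-z- replicate 1. Myc was at 0.178, 1.08 and 0 FPKM in Dppa4 m-z- against 0.449, 5.56 and 0.988 FPKM in Dppa4 m-z+ (-0.98, SE 0.65, adjusted p = 0.812; -0.33 without m-z+ replicate 2), with overlapping groups. Klf4 was at 14.8, 8.51 and 5.97 against 20.5, 12.9 and 19.7 FPKM (-0.85, SE 0.51, adjusted p = 0.789), which overlapped too. The oocyte and zygote markers summed to 915 to 1358 FPKM in Dppa4 m-z- and to 431 to 906 FPKM in Dppa4 m-z+ (7 of 7 markers present in both), and their part in these differences was not tested.

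The remaining members overlapped between the Dppa4 genotypes. Klf5 was at 17.4, 9.3 and 22.6 FPKM in m-z- and 18.4, 10.1 and 25.6 FPKM in m-z+, and Klf17 at 58.1, 55.7 and 86 against 91.7, 75 and 93.4 FPKM. Pou5f1 ranged from 2.31 to 23.6 FPKM (7.15, 2.31 and 23.6) in m-z- and was 8.35, 19.3 and 12.5 FPKM in m-z+. Sox2 was at 7.63, 0.334 and 2.03 against 0.479, 0.805 and 2.2 FPKM, so its higher mean in m-z- came from the first library. Nanog was at 0, 0.737 and 1.15 against 0, 0 and 0.705 FPKM. Sall4 was at 14.6, 9.88 and 8.2 against 9.39, 10.8 and 13.2 FPKM, and Esrrb at 4.48, 2.26 and 2.06 against 3.51, 4.87 and 4.6 FPKM. Their differences lay between -0.65 (Pou5f1) and 0.68 (Sox2).

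In the libraries labelled Dppa2 m-z-, Myc was at 9.63, 18.1 and 5.32 FPKM, against 5.79, 4.46 and 0.691 FPKM in Dppa2 m-z+. The groups overlapped, and the difference was 1.45 (SE 0.65, limma adjusted p = 0.618), or 1.84 (SE 0.71, adjusted p = 0.65) without the globin-rich replicate 3 and 0.84 (adjusted p = 0.991) without m-z+ replicate 3. Zfp42 was at 36.4, 75.8 and 50.6 against 43.3, 35.5 and 25.4 FPKM, overlapping groups (0.60, SE 0.44, adjusted p = 0.764; 0.62 without replicate 3). Klf4 was at 9.96, 6.49 and 23.1 against 19.6, 15.2 and 40 FPKM (-0.93, SE 0.51, adjusted p = 0.71). Without replicate 3 the Klf4 difference was -1.40 (SE 0.52, adjusted p = 0.63), and both remaining m-z- libraries were below all m-z+ libraries. It was -0.54 without m-z+ replicate 3 and -0.56 without m-z- replicate 2. Klf5 was at 28, 21 and 41.3 against 18.3, 13.9 and 27.6 FPKM (0.57; 0.32 without replicate 3), and Klf17 at 122, 82.8 and 89 against 104, 98.3 and 74.3 FPKM (0.08; 0.14). Pou5f1 was at 5.65, 2.04 and 16.9 against 7.9, 4.86 and 8.02 FPKM (-0.13; -0.79). Nanog was at 1.04, 0.303 and 2.95 against 1.08, 0.352 and 1.59 FPKM, a difference of 0.18 that became -0.25, and Sox2 was at 0.176, 1.17 and 1.87 against 2.52, 1.65 and 0 FPKM (-0.12; -0.40). Replicate 3 was the highest of its group for Klf4, Klf5, Pou5f1, Sox2, Nanog and Esrrb. Sall4 was at 7.82, 10.2 and 5.59 against 11.5, 15.2 and 12.6 FPKM, lower in all 3 libraries (-0.69, SE 0.40, adjusted p = 0.73; -0.49 without replicate 3). Esrrb was at 5.72, 2.8 and 9.86 against 6.14, 0.975 and 6.21 FPKM (0.48; 0.11). The summed level of 7 cumulus and granulosa markers was 28.4 to 43.4 FPKM in these libraries and 8.38 to 14.3 FPKM in Dppa2 m-z+, with Foxl2, Fshr, Has2 and Ptx3 at 0 in all 3 of them. Its part in the differences was not tested.

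The sign of the Myc and Zfp42 differences between m-z- and m-z+ was positive in the Dppa2 arm and negative in the Dppa4 arm. The difference between the arms was 2.43 for Myc (SE 0.92, unadjusted p = 0.0165, limma adjusted p = 0.421) and 1.71 for Zfp42 (SE 0.63, unadjusted p = 0.0146, adjusted p = 0.421), so neither passed, in a contrast that called 3 genes. Without the globin-rich replicate 3 these were 2.82 (SE 0.95, adjusted p = 0.367) and 1.72 (SE 0.68, adjusted p = 0.421). Against WT 2-cell embryos no member passed in any mutant group: 0 of 10 in each, where 0.113% of genes passed for Dppa2 m-z+, 0.0973% for the libraries labelled Dppa2 m-z-, 0% for Dppa4 m-z+ and 0.0648% for Dppa4 m-z-. The 1 member with an unadjusted p below 0.05 was Myc in Dppa4 m-z-, where 10.7% of all genes were below it, so 1 of 10 members is near the background. These comparisons share the WT libraries, and those of the Dppa2 arm also differ from WT in background. Myc in Dppa4 m-z- (0.178, 1.08 and 0 FPKM) lay below both WT libraries (6.69 and 5.03 FPKM), with a difference of -2.34 (SE 0.72, 95% interval -3.86 to -0.81, unadjusted p = 0.00489, adjusted p = 0.305). In Dppa4 m-z+ Myc differed from WT by -1.35 (adjusted p = 0.795), in Dppa2 m-z+ by -0.78 (adjusted p = 0.854) and in the libraries labelled Dppa2 m-z- by 0.67 (adjusted p = 0.949), or 1.07 without replicate 3 (adjusted p = 0.839). With each library left out in turn, that last difference ranged from 0.27 to 1.07.

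**Figure D4:**
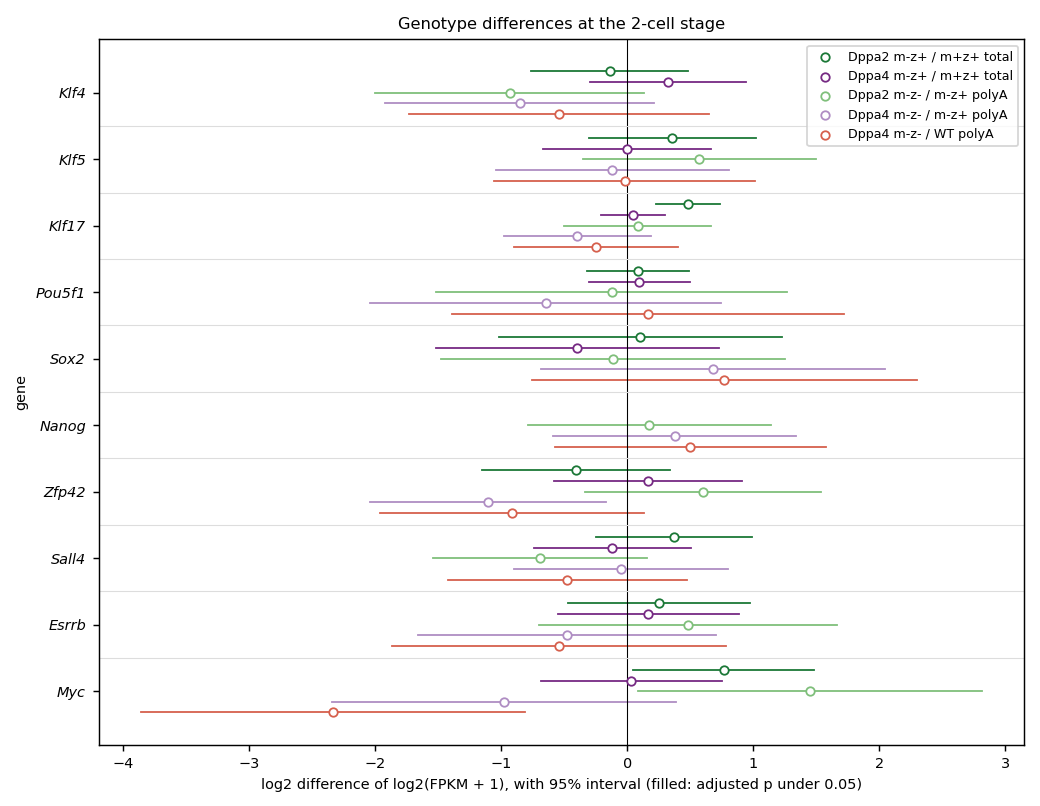
Differences between genotypes at the 2-cell stage on the log2(FPKM + 1) scale, with 95% intervals, for m-z+ against m+z+ in total RNA and for m-z- against m-z+ or WT in polyA RNA. All points are open because no member reached an adjusted p of 0.05. Intervals that leave 0 without passing the adjusted test are those of Klf17 and Myc in Dppa2 m-z+, Myc in Dppa2 m-z-, Zfp42 in Dppa4 m-z- against m-z+ and Myc in Dppa4 m-z- against WT.

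Between the controls of both arms, Klf17 was the 1 member called: at the 2-cell stage it was at 130 and 140 FPKM in the Dppa2 arm and 213 and 222 FPKM in the Dppa4 arm. That is 1 of 9 lower, where 4.63% of genes were lower and 9.13% passed in either direction. The difference was -0.68 (SE 0.12, limma adjusted p = 0.00645). In 1-cell embryos the order was the opposite, with 364 and 351 FPKM in the Dppa2 arm above 276 and 276 FPKM in the Dppa4 arm, but the difference of 0.37 did not pass (SE 0.12, adjusted p = 0.255; 0 of 9 members, where 1.01% of genes passed; 2, Klf17 and Klf5, had an unadjusted p below 0.05, as did 7.74% of all genes). Without Dppa4-arm control 2-cell replicate 2 the 2-cell call was lost (-0.66, adjusted p = 0.0515). Klf5 was lower in the Dppa2 arm at the 1-cell stage (0.053 and 0 against 1.79 and 0.549 FPKM; -1.02, SE 0.31, adjusted p = 0.219), and with a pseudocount of 0.1 that difference passed (-3.16, adjusted p = 0.0163). Background strain and arm cannot be told apart here.

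The members also differed in how much they varied between libraries of a group. Klf17 was the steadiest: its residual SD on the log2 scale was 0.0804 in total RNA, larger than that of 4.2% of the 500 tested genes nearest in level, and 0.254 in polyA RNA, larger than 8%. Sox2 was the most variable member in total RNA (0.603, larger than 91.6% of its neighbours). Pou5f1 was the most variable in polyA RNA (0.925, larger than 86.8%), where its 2-cell values ran from 2.04 to 23.6 FPKM. In total RNA Pou5f1 had a residual SD of 0.193, larger than 57.2% of its neighbours. Zfp42 lay near the middle in both (0.364, 59.8%; 0.55, 49.8%).

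Genes with the most similar profiles were ranked by the smaller of the Pearson correlations over the 16 libraries of each table, among 13916 genes tested in both. Klf4 was closest to Fam83d (0.915), Hccs (0.895) and Ep300 (0.893), Klf5 to Zfp954 (0.975), Rbm5 (0.967) and Gm12612 (0.964), and Zfp42 to Obox3-ps2 (0.971), Prosc and Rps3 (both 0.968). Myc was closest to Tmed4 (0.833), Btbd7 (0.83) and Gabbr1 (0.823), and Sox2 to Nr4a2 (0.772), Acly (0.748) and 6720427I07Rik (0.743). Klf17 was closest to Hint1 (0.837), Mrps27 (0.8) and Atp6v1c1 (0.782), and Pou5f1 to Surf4 (0.812), Rras2 (0.792) and Plxna4 (0.791). Sall4 (Ppap2b 0.666, Cpeb3 0.664, Camk1d 0.617) and Esrrb (Gm13061 0.639, Usf1 0.631, Gm6195 0.608) had no gene as close. All these profiles contain the contrast between stages, and the libraries of a table share their preparation, so the correlations are a description only. Nanog was not ranked because it was tested in 1 table.

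Relatives of the members were examined in the same stage comparisons, where 61.6% and 49.1% of all genes passed in the controls of the Dppa2 and the Dppa4 arm and 25.9% in WT polyA RNA, so the counts below are a description. Of 23 other Klf and Sp family genes 17 were tested in total RNA: 11 rose and 2 fell in Dppa2-arm controls, and 9 rose and 0 fell in Dppa4-arm controls, with medians of 1.29 and 0.81 beside 0.06 and 0.04 for all genes. Sp6, a zinc-finger factor of epithelia, had the largest rise (5.09 and 4.68), followed by Klf9 (3.24 and 3.46), and Klf7 and Klf11 fell in the Dppa2 arm (-0.88 and -0.56). In WT polyA RNA 4 of 17 rose and 0 fell, with Klf9 at 3.51 and Klf3 at 2.92. The list for the other Myc, Max and Mxd family held 13 names and included Zbtb17, a MYC partner. Of these names 12 were found and 11 were tested in total RNA. There 5 rose and 3 fell in Dppa2-arm controls, and 4 rose and 2 fell in Dppa4-arm controls (medians 0.71 and 0.20), with rises of Mycn (2.89 and 2.96) and Mga (2.46 and 1.70) and falls of Mlx (-1.85 and -1.14) and of Mxd1, a MAX partner that opposes MYC (-1.47 and -0.998). In polyA RNA 2 of 10 rose, Mga by 2.15 and Zbtb17 by 1.85, and 0 fell (median 0.16).

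The other genes of the naive network split. Of 24 tested of 28, 13 rose and 4 fell in Dppa2-arm controls and 11 rose and 3 fell in Dppa4-arm controls (medians 0.78 and 0.68). L1td1, which encodes an RNA-binding protein of stem cells, rose by 5.33 and 4.12, and Fbxo15, a known target of POU5F1 and SOX2, by 4.45 and 4.10. Gbx2 fell in both arms (-1.97 and -0.98), and so did Dnmt3l, the cofactor of the de novo methyltransferases (-1.19 and -0.79), and Dppa3, a maternal factor of the zygote (-0.88 and -0.49), while Tcl1 had the second largest fall in the Dppa2 arm (-1.39). In WT polyA RNA 6 of 26 rose and 0 fell, Fbxo15 by 4.06 and Dppa5a by 2.89. Of the 11 LIF and STAT3 signalling genes all were tested in total RNA, and 6 rose in each control group, while Jak1 fell (-1.27) in the Dppa2 arm (medians 0.80 and 0.64). Pim3 (4.58 and 3.30) and Socs3 (3.14 and 2.97), both known STAT3 targets, had the largest rises, and Pim3 was the 1 of 10 that rose in polyA RNA (3.06). Among 20 paralogs of the core factors 14 were tested, as 15 entries because Pou6f1 has 2 identifiers. Of the entries, 8 rose and 0 fell in Dppa2-arm controls, and 9 rose and 1 fell in Dppa4-arm controls (medians 1.63 and 1.31). They were led by Yy1, a zinc-finger relative of Zfp42 (3.51 and 3.20), Pou6f1 in the Dppa2 arm (2.66 for ENSMUSG00000009739; the other identifier, at 0.93, did not pass) and Sox15 in the Dppa4 arm (2.09), with Pou2f1 falling there (-1.07). In polyA RNA 3 of 10 rose, with Yy1 at 4.85 and its retrotransposed copy Yy2 at 2.77, whose reads may be shared.

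TPM scaling, under which all 5 medians stayed above 0 in both control groups of total RNA, changed these splits in the Dppa2-arm controls. It gave 10 higher and 6 lower for the naive network, 4 and 2 for LIF and STAT3 signalling, 3 and 4 for the Myc family and 7 and 2 for the paralogs. In Dppa4-arm controls it gave 3 and 3 for the Myc family. In WT polyA RNA the Myc family median was 0.16 as deposited and -0.14 with TPM scaling. In the m-z+ embryos, where 57.3% (Dppa2) and 50.3% (Dppa4) of all genes passed, Dppa2 m-z+ called Klf10, Klf16, Klf2, Klf3, Klf8, Klf9, Sp2, Sp3, Sp4, Sp5, Sp6 and Sp9 higher and Klf7 lower, and Dppa4 m-z+ called Klf2, Klf3, Klf9, Sp2, Sp4, Sp5 and Sp6 higher. These rises ran from 0.76 (Klf16) to 5.32 (Sp6). Of the naive network both groups called Dppa5a, Fbxo15, Fgf4, L1td1, Nacc1, Nr5a2, Rif1, Tbx3, Tcf7l1, Tet1, Tfcp2l1 and Zfp281 higher and Dnmt3l, Dppa3 and Gbx2 lower. Under TPM scaling the Dppa4 m-z+ split of that list was 7 to 5 in place of 13 to 3, and that of the LIF and STAT3 genes 5 to 2 in place of 5 to 0. For Dppa2 m-z+ it changed the LIF and STAT3 split from 6 to 1 into 6 to 2 and the paralog split from 8 to 1 into 8 to 3, and the Myc family median was -0.01 as deposited (0.71 in the controls, a difference not tested), -0.09 with TPM and 0.04 with median-ratio scaling. Both called the LIF-axis genes Jak2, Lif, Pim1, Pim3 and Socs3 higher, and Dppa2 m-z+ also Tyk2 higher and Jak1 lower. Of the Myc family both called Mga, Mlxip and Mycn higher and Mlx and Mxd1 lower, Dppa2 m-z+ also Zbtb17 higher and Mxd4 lower, and Dppa4 m-z+ also Mycl higher. Of the paralogs both called Esrra, Pou3f1, Pou6f1, Sox1, Sox11, Sox4 and Yy1 higher, with Sox17 higher and Pou2f1 lower in Dppa2 m-z+ and Sox15 higher in Dppa4 m-z+. No list gene was called in any comparison of a mutant group with its controls, with m-z+ or with WT. Between the 2-cell controls of both arms, Zfp281 (1.76), Tfcp2l1 (0.94), Pim3 (1.55), Esrra (1.00) and Sox11 (0.97) were higher in the Dppa2 arm, and Gbx2 (-0.97), Tcl1 (-1.20) and Sox15 (-1.24) were lower.

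**Figure D5:**
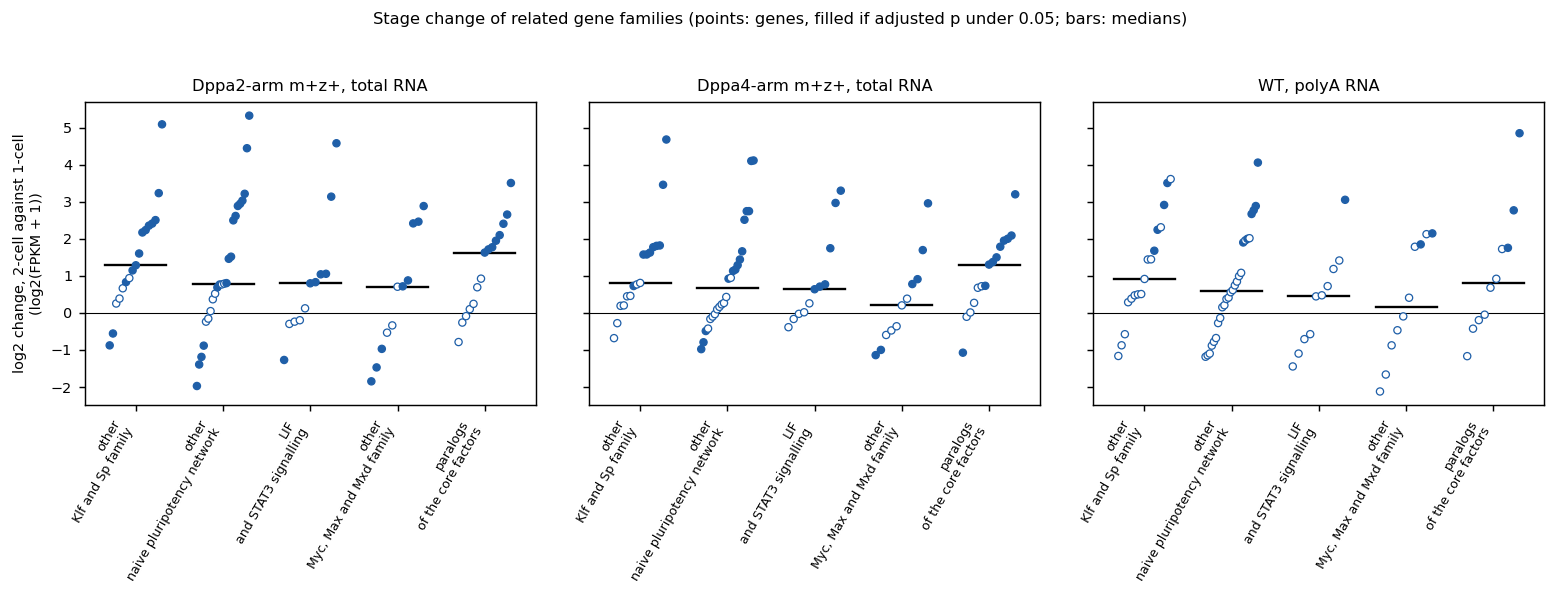
2-cell minus 1-cell difference of every tested gene of 5 related lists in both control groups of total RNA and in WT polyA RNA, on the log2(FPKM + 1) scale. Points are genes, filled where the adjusted p was below 0.05, and bars are list medians, which run from 0.16 (Myc, Max and Mxd family, polyA RNA) to 1.63 (paralogs, Dppa2-arm controls).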

How the data were processed

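Total RNA (16 libraries) and polyA RNA (16 libraries) of mouse embryos were sequenced. Per the labels' protocols, total RNA libraries came from a stranded SMARTer kit and polyA libraries from SMARTer Ultra Low Input cDNA with Nextera XT, a method without strand information. Per the submitters' processing notes, the authors used HISAT2 2.1.0 and StringTie 1.3.3b on mm10; the sources used here name no annotation, filter or strand setting. The deposited values are FPKM, from which read depth cannot be read.

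From these, log2(FPKM + 1) was fitted in limma 3.58.1 under R 4.3.3, with statmod 1.5.0 for robust and trended empirical Bayes moderation. All 16 libraries of a table entered 1 fit with a mean per group, tests were two-sided, and Benjamini-Hochberg adjustment ran over every gene reaching 1 FPKM in 2 or more libraries. A gene passed at an adjusted p below 0.05. The script was tested on simulated data. Stages were compared within a genotype, genotypes within a stage and arm, and the controls of both arms with each other. Differences between such changes were contrasts of the same fit. Alternatives were the pseudocount, the filter, scaling to a common total (TPM), median-ratio scaling, limma without trend, a replicate block, fits of the compared groups and leaving out each library. Named genes were all members, in each list the 2 largest called rises and falls in the 3 control or WT stage comparisons and every called gene elsewhere, and the 3 most similar profiles per member; 1 called list gene is not reported here. Members, lists and tests were chosen with earlier results of these data known. Positions are from GENCODE M21 on mm10 (45143 of 46078 identifiers found).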

Additional observations from a re-analysis of the deposited data

Results flagged for a closer look

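The fall of Klf17 between the 1-cell and the 2-cell stage differed between the control embryos of the arms. The difference was -1.06 on the log2(FPKM + 1) scale (SE 0.17, limma adjusted p = 0.0384). Klf17 changed by -1.40 in the mixed-background Dppa2 arm and by -0.34 in the B6 Dppa4 arm, and in each arm both 2-cell libraries were below both 1-cell libraries. With alternatives chosen after seeing the data, the difference kept its sign. It missed the threshold with median-ratio scaling (adjusted p = 0.0538), limma without trend and robust options (0.0875), only the groups compared (0.133) and no filter (1). It also missed it without Dppa2-arm control 1-cell replicate 1 (0.174) or 2 (0.147), Dppa4-arm control 1-cell replicate 1 (0.154) or 2 (0.145), or Dppa4-arm control 2-cell replicate 2 (0.126). Background and arm cannot be told apart. No group has 4 libraries, so the members' values were not used to check whether a single library stood apart within a group. Dppa2 m-z- polyA replicate 3 was singled out by its globin RNA.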

How the results depend on the processing

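No member that passed changed direction under an alternative run. Of 475 alternative values for the members' changes that were followed, 415 kept direction and side of the threshold, 58 no longer passed and 2 passed anew. Without a filter, 4, 3, 4, 3 and 2 members passed in the stage comparisons of Dppa2-arm controls, Dppa4-arm controls, Dppa2 m-z+, Dppa4 m-z+ and WT polyA RNA, against 7, 6, 7, 6 and 5. That fit tests all 46078 genes, including those listed at 0 nearly everywhere. How many of all genes passed in it is not set beside these counts, so the drop is not a result about the members. Klf5, Sox2, Zfp42 and Myc met the filter in total RNA mainly through 2-cell libraries, the stage in which they were called higher. Leaving out a WT library gave 3 to 4 members in polyA RNA. Between the control 1-cell libraries of the arms, 1 member (Klf5) passed with a pseudocount of 0.1, against 0. At the 2-cell stage Klf17 was called, and 0 members passed without a filter or with only the groups compared (adjusted p = 0.242). Leaving out a library gave 0 to 1 there, and the cause was not tested. With only the groups compared, Pou5f1 (-1.46, limma adjusted p = 0.0189) and Klf17 (-0.66, adjusted p = 0.0447) also passed in WT polyA RNA.

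Of 140 small differences that did not pass, 77 changed sign under some alternative, so their direction is not established. Replicate numbers did not pair libraries (correlations of same-numbered deviations from -0.14 up to 0.14 for total RNA, from -0.18 up to 0.12 for polyA RNA). With the replicate number as a block, 7, 6, 7, 6 and 5 members passed in the stage comparisons, as without it. Read depth is unknown, so low levels such as those of Nanog, Sox2 and Myc have no counting error.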
